A study of Homo sapiens with 2 samples.

Results

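The NRF2 pathway genes described here are 38 genes chosen by name from the 27655 genes of a deposited RNA-seq comparison. They comprise the regulators of the antioxidant transcription factor NRF2 (gene NFE2L2), its target enzymes, and the enzymes of the thioredoxin and glutathione systems. Every one of the 38 was found once in the table, and all 38 had an adjusted p below 1, as did 18002 genes in all. The cells were PC9-BrM3, a brain-metastatic derivative of the lung adenocarcinoma line PC9, kept in routine culture in RPMI medium with serum. One group, shPCDH1, carried a knockdown of PCDH1, a protocadherin of cell-cell contacts, and the other, shNC, was the control labelled WT, with 1 sample listed for each. The labels do not say how many hairpins were used or whether the line is a single clone. Poly-A RNA was sequenced without marking the strand.

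All fold changes, p-values and adjusted p-values below come from the authors' deposited table, which sets a group coded 8 over a group coded 7. Neither code occurs in the sample labels, so results are written as higher or lower in group 8, and knockdown and control are not assigned to the codes. PCDH1 itself stood in group 8 at 38.5% of its level in group 7 (log2 fold change -1.38 ± 0.14, adjusted p = 1.76e-20). Values per library were not used, because the 6 library codes also match no label, so levels, depth and cell-type markers were not checked. The ± values are standard errors worked back from each deposited p-value as if it came from a Wald test, which is an assumption. No label says that the libraries were separate cultures, so these p-values may reflect technical spread alone.

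NRF2 is held in the cytoplasm by KEAP1, an adaptor that brings it to a CUL3 ubiquitin ligase for degradation. Oxidants and electrophiles modify cysteines of KEAP1, NRF2 then accumulates, enters the nucleus, pairs with small MAF proteins and binds antioxidant response elements beside genes for detoxification, glutathione, thioredoxin and NADPH supply. In lung cancer, mutation of KEAP1 or NFE2L2 is a known route to constant activity of this pathway.

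Of the 38 genes, 14 were lower and 5 higher in group 8 at an adjusted p under 0.05 in the authors' deposited table, and 19 passed no call. The 38 were chosen with earlier results of these data known, so the shares that follow only describe this list. The lower calls made up 36.8% of the genes, against 11.2% of the 18002 genes with an adjusted p below 1. The higher calls made up 13.2%, against 10.4% of those genes, a share near the background. Among the 33 members with a standard error of at most 0.2, 36.4% were lower and 12.1% higher. In the 8432 protein-coding genes with such a standard error, 16.8% were lower and 11.8% higher. The median log2 fold change was -0.15 over the 38 genes and -0.0062 over all 18002. The members therefore did not shift as one block: individual values ran from -1.62 for UGDH to 2.02 for GPX3.

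**Figure D1:**
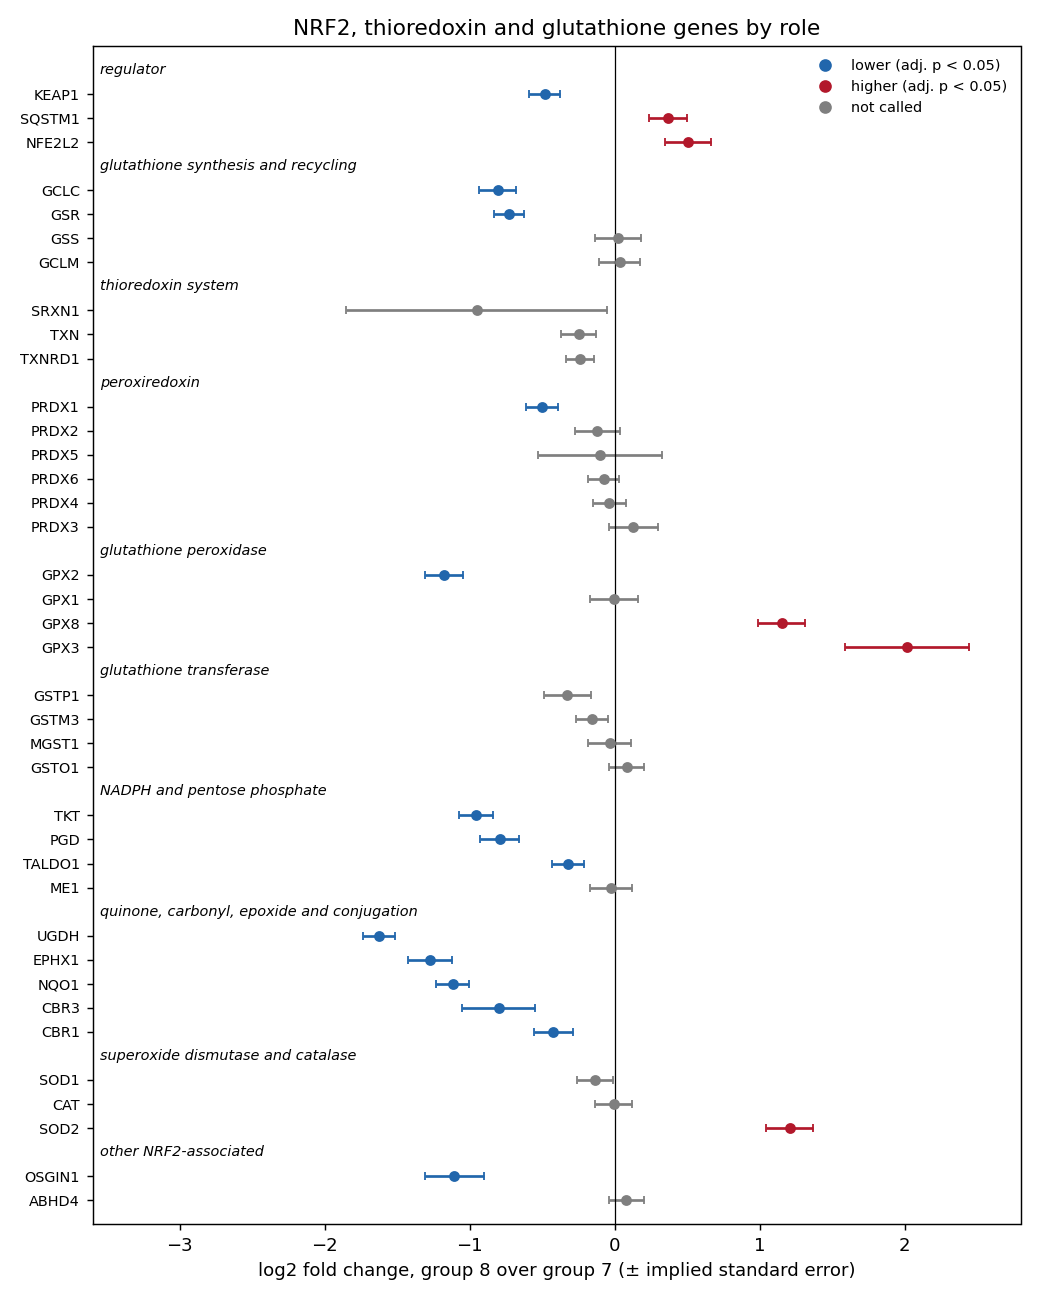
Log2 fold change of group 8 over group 7 for the 38 genes, sorted within their roles, with bars for the implied standard error. All 5 quinone, carbonyl, epoxide and conjugation enzymes lie to the left at -1.62 to -0.42, while the peroxiredoxins other than PRDX1 and the glutathione transferases lie between -0.33 and 0.13.

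**Figure D2:**
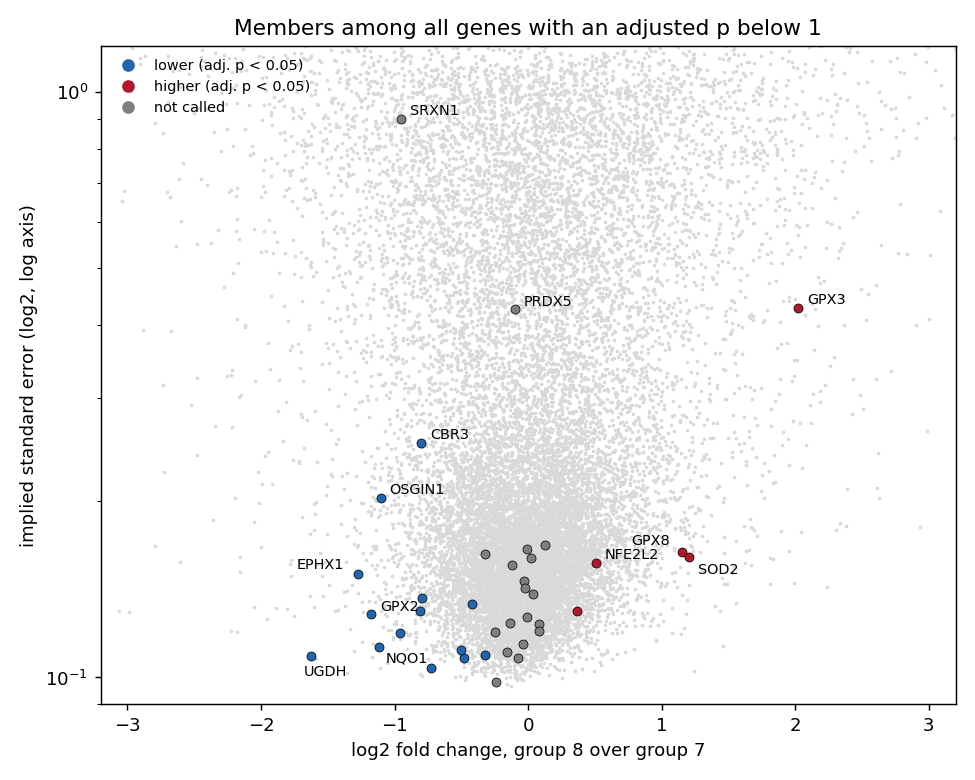
Log2 fold change (horizontal) against the implied standard error (vertical, log axis) for the members over all genes with an adjusted p below 1 in grey; the axes leave out grey genes beyond the range drawn. SRXN1, with a standard error of 0.90, and GPX3 and PRDX5, both with 0.43, have the largest standard errors of the members, and GPX3 also has the highest fold change, 2.02.

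The regulators changed in opposite directions. KEAP1 (chromosome 19, 10486120 to 10503741, minus strand) was 1.40-fold lower in group 8, with a log2 fold change of -0.48 ± 0.11 and an adjusted p of 0.000124 in the authors' deposited table. NFE2L2, the gene of NRF2 (chromosome 2, 177227595 to 177392697, minus strand), was 1.42-fold higher at 0.51 ± 0.16, with an adjusted p of 0.00901. SQSTM1, whose product p62 binds KEAP1 and delivers it to autophagy, was 1.29-fold higher at 0.37 ± 0.13, with an adjusted p of 0.0256. The message for NRF2 was thus higher and that for its repressor lower in the same group in which most called target genes were lower. NRF2 protein, which is controlled mainly by degradation, is not measured by these data. NFE2L2 and SQSTM1 each share more than 20% of their exon bases with other genes (20.9% and 22.0%), whereas KEAP1 shares none.

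Promoters of the members were searched for the core of the antioxidant response element, TGACNNNGC, on both strands, in RefSeq windows (GRCh38.p14) from 250 bases before to 50 bases after each listed start. Of the 38 genes, 32 had an entry in the table; GSS, GSR, PRDX1, PRDX6, CBR3 and SOD1 had none. The core was found for 11 of these 32 genes (34.4%). It was found for 4384 of all 27305 genes with an entry (16.1%), and for 2043 of the 10695 coding genes with both an entry and an adjusted p below 1 (19.1%). The longer word TGACTCAGC, which also contains the AP-1 word TGACTCA, was present for 2 members, GSTP1 and ME1 (6.25%), against 0.689% of all genes. The windows below are shown because they let the 9 core letters of called and uncalled genes be compared. Each is written 5′ to 3′ on the strand that carries the core, with the core in capitals and 10 flanking bases on each side. Each gene is shown once, and KEAP1, ME1 and TXNRD1 hold further matches that are not shown. The first 5 belong to the genes called lower in group 8, and the other 4 to genes with no call.
KEAP1, chr19:10502784-10502812, plus strand: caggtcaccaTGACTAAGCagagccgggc
GPX2, chr14:64942849-64942877, plus strand: atccccaggaTGACTTAGCaaaaacaggt
EPHX1, chr1:225825266-225825294, plus strand: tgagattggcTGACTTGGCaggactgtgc
CBR1, chr21:36069855-36069883, minus strand: ccagctagccTGACTTTGCagaacccgca
PGD, chr1:10398853-10398881, minus strand: agcacctagaTGACATTGCcccggcgagg
GCLM, chr1:93909446-93909474, plus strand: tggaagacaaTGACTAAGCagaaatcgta
GSTP1, chr11:67583736-67583764, plus strand: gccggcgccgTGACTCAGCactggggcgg
ME1, chr6:83431170-83431198, minus strand: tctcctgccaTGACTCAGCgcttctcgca
TXNRD1, chr12:104215670-104215698, plus strand: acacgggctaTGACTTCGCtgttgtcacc

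KEAP1 and GCLM carry the same 9 letters, TGACTAAGC, at like distances from a listed start (31 and 34 bases before it). KEAP1 has 2 listed starts and GCLM has 1, and the start used for KEAP1 lies inside the gene span given above. KEAP1 was lower in group 8 at -0.48 ± 0.11, and GCLM had 0.035 ± 0.14 with no call. The promoters are not alike in all matches: KEAP1 also holds TGACACGGC, 54 bases before the same start, and GCLM has no further match. The core was found for 5 of the 11 genes called lower that had an entry, for 6 of the 16 with no call, and for 0 of the 5 called higher. Over protein-coding genes of the whole comparison, the core was found for 19.7% of those called lower, 18.4% of those called higher and 19.1% of the rest whose adjusted p was below 1. A match is a run of letters and not a bound site, and genes with several listed starts have more bases searched. Bases outside the windows were not searched, so a gene without a match may hold the core elsewhere. MGST1 and GSTO1, the other genes with the core, had no call.

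**Figure D3:**
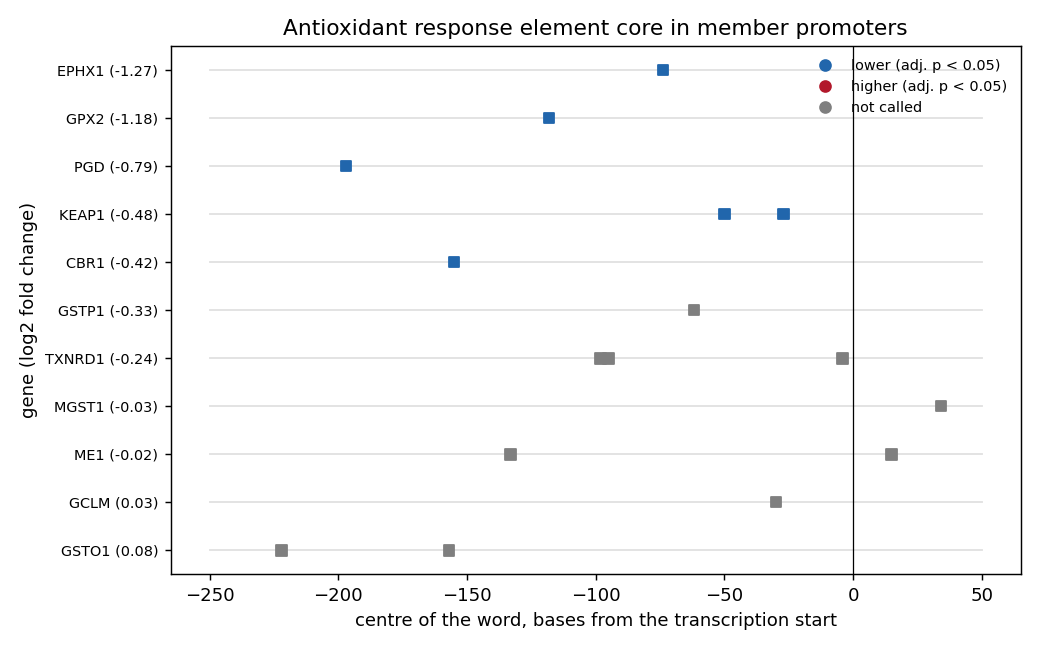
Position of the antioxidant response element core in the promoter windows of the 11 genes that hold it, with the transcription start at 0 and each gene's log2 fold change in brackets; positions from different starts of TXNRD1 are drawn on 1 line. Points mark the centre of the core. Genes called lower (blue) include KEAP1, with centres at -27 and -50, and genes with no call (grey) include GCLM, at -30. No gene called higher appears.

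All 5 genes grouped here as quinone, carbonyl, epoxide and conjugation enzymes were called lower in group 8 in the authors' deposited table. Lower calls made up 11.2% of the 18002 genes with an adjusted p below 1. They made up 16.8% of the coding genes with a standard error of at most 0.2. The group is small and was set by hand, and the glutathione transferases, kept apart from it, had no call. UGDH makes UDP-glucuronic acid, the donor for glucuronidation, and was 3.08-fold lower at -1.62 ± 0.11, with an adjusted p of 1.81e-47. By p-value it ranked at position 17 of all genes in the table. EPHX1, the microsomal epoxide hydrolase, was 2.42-fold lower at -1.27 ± 0.15, with an adjusted p of 3.15e-15. NQO1 reduces quinones by a pair of electrons and is the most used marker of NRF2 activity; it was 2.17-fold lower at -1.12 ± 0.11, with an adjusted p of 9.03e-21.

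The carbonyl reductase genes CBR1 and CBR3 lie 61745 bases apart on chromosome 21. CBR3 was 1.74-fold lower at -0.80 ± 0.25 (adjusted p = 0.0105) and CBR1 1.34-fold lower at -0.42 ± 0.13 (adjusted p = 0.0109) in the authors' deposited table. Their 95% intervals, -1.29 to -0.31 and -0.68 to -0.16, overlap. OSGIN1, an oxidative stress-induced growth inhibitor, was 2.15-fold lower at -1.10 ± 0.20, with an adjusted p of 1.46e-06. ABHD4, a lipid hydrolase, had 0.080 ± 0.12 with no call.

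NADPH supplies the electrons for both the glutathione and the thioredoxin systems. Of the 4 genes grouped here under NADPH and pentose phosphate, 3 were lower in group 8. Lower calls made up 11.2% of the 18002 genes with an adjusted p below 1, and 16.8% of the coding genes with a standard error of at most 0.2. The 3 lower genes belong to the pentose phosphate pathway, but a group of 4 chosen by hand does not measure that pathway. In the authors' deposited table TKT, transketolase, was 1.94-fold lower at -0.96 ± 0.12, with an adjusted p of 1.11e-13. PGD, 6-phosphogluconate dehydrogenase, which produces NADPH directly, was 1.73-fold lower at -0.79 ± 0.14, with an adjusted p of 2.36e-07. TALDO1, transaldolase, was 1.25-fold lower at -0.32 ± 0.11, with an adjusted p of 0.0196. ME1, the cytosolic malic enzyme, which makes NADPH outside that pathway, had -0.025 ± 0.14 with no call. None of these 4 genes shares exon bases with another gene.

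Glutathione synthesis split between its subunits. GCLC, the catalytic subunit of glutamate-cysteine ligase, which sets the rate of synthesis, was 1.75-fold lower at -0.81 ± 0.13, with an adjusted p of 2.38e-08 in the authors' deposited table. GCLM, the modifier subunit of the same enzyme, had 0.035 ± 0.14 with no call, and its 95% interval of -0.24 to 0.31 does not meet that of GCLC, -1.06 to -0.55. GSS, which adds glycine in the last step, had 0.024 ± 0.16 with no call. GSR, the reductase that returns oxidised glutathione to its reduced form, was 1.66-fold lower at -0.73 ± 0.10, with an adjusted p of 1.67e-10.

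None of the 3 genes of the thioredoxin system was called, and 2 of them had an unadjusted p under 0.05. Over the 18002 genes with an adjusted p below 1, 11.2% were lower and 10.4% higher. With such shares, no call among 3 genes says little about this system. TXN, the small dithiol protein that reduces disulfides, had -0.25 ± 0.12 (adjusted p = 0.126), and TXNRD1, the selenoprotein that reduces it, had -0.24 ± 0.098 (adjusted p = 0.0635) in the authors' deposited table. Their unadjusted p-values were 0.0376 and 0.0148. SRXN1, sulfiredoxin, which rescues over-oxidised peroxiredoxins, had -0.95 ± 0.90, and its 95% interval of -2.72 to 0.81 leaves its direction unresolved.

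Of the 6 peroxiredoxins, thiol enzymes that remove hydrogen peroxide, only PRDX1 was called in the authors' deposited table. For comparison, 11.2% of the 18002 genes with an adjusted p below 1 were called lower. The share was 16.8% for coding genes with a standard error of at most 0.2, so 1 call among 6 genes does not stand out. PRDX1, a cytosolic enzyme, was 1.42-fold lower in group 8 at -0.50 ± 0.11, with an adjusted p of 0.00011. Its close cytosolic relative PRDX2 had -0.12 ± 0.16, the mitochondrial PRDX3 0.13 ± 0.17, PRDX4 of the endoplasmic reticulum -0.035 ± 0.11, and PRDX6 -0.074 ± 0.11. PRDX5 had -0.0999 ± 0.43, with a wide 95% interval of -0.93 to 0.73. Whether PRDX1 differs from the other peroxiredoxins was not tested.

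Of the 4 glutathione peroxidases, 1 was called lower and 2 higher in group 8. Over the 18002 genes with an adjusted p below 1, 11.2% were lower and 10.4% higher. A group of 4 is too small for its shares to be read against these. GPX2, the epithelial selenoenzyme and a known NRF2 target, was 2.26-fold lower in group 8 at -1.18 ± 0.13, with an adjusted p of 8.11e-18 in the authors' deposited table. GPX3, the secreted plasma form, was 4.05-fold higher at 2.02 ± 0.43 (adjusted p = 4.44e-05), with a 95% interval of 1.18 to 2.86 that leaves the size of the fold loosely fixed. GPX8, a membrane protein of the endoplasmic reticulum without selenocysteine, was 2.22-fold higher at 1.15 ± 0.16, with an adjusted p of 1.25e-10. GPX1, the widely expressed cytosolic form, had -0.0051 ± 0.17 with no call; the table lists it under the polymorphic pseudogene class of its annotation.

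SOD2, the manganese superoxide dismutase of mitochondria, was 2.31-fold higher in group 8 at 1.21 ± 0.16, with an adjusted p of 4.45e-12 in the authors' deposited table. SOD1, the copper-zinc enzyme of the cytosol, had -0.14 ± 0.12, and CAT, the catalase of peroxisomes, had -0.0058 ± 0.13, both with no call. The 95% interval of SOD2, 0.89 to 1.52, lies apart from those of SOD1, -0.38 to 0.11, and of CAT, -0.25 to 0.24.

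None of the 4 glutathione transferases among the members was called in the authors' deposited table, either way. With 11.2% lower and 10.4% higher over the 18002 genes with an adjusted p below 1, this says little about the family. GSTP1, the main soluble transferase of many carcinomas, had -0.33 ± 0.16 with an unadjusted p of 0.0455 and an adjusted p of 0.145. GSTM3 had -0.16 ± 0.11, GSTO1 0.083 ± 0.12 and the microsomal MGST1 -0.034 ± 0.15. GSTM genes are close paralogs, so reads of GSTM3 may be divided among them. Over all 19 members with no call, 3 had an unadjusted p under 0.05, and for the 17 with a standard error of at most 0.2 the log2 fold changes lay between -0.33 and 0.13. A missing call does not show that such a gene is equal in both groups.

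Other genes of the pathway were taken from 6 lists that leave out the members. The lists were chosen with earlier results of these data known, so their shares describe the lists and are not independent support. For other NRF2 target genes, 22 were lower and 1 was higher among 32 measured in the authors' deposited table, with a median log2 fold change of -0.47. These are shares of 68.8% and 3.12%, against 11.2% lower and 10.4% higher over the 18002 genes with an adjusted p below 1, and 16.8% and 11.8% over the coding genes with a standard error of at most 0.2. The 3 lowest were ALDH3A1, an aldehyde dehydrogenase, at -2.36 ± 0.19, and the aldo-keto reductase genes AKR1B10 at -2.22 ± 0.12 and AKR1C3 at -2.18 ± 0.12. The 1 gene higher was TXNIP, which encodes a protein that binds and inhibits thioredoxin, at 0.63 ± 0.11 with an adjusted p of 2.05e-07. Of the other genes on this list, SLC7A11, the cystine importer that feeds glutathione synthesis, had -0.88 ± 0.19 (adjusted p = 8.88e-05), and the heme oxygenase gene HMOX1 had 0.32 ± 0.24 with no call; both were named after their values were seen. The AKR1C genes are close paralogs and UGT1A6 shares exons with its neighbours, so the division of reads among them is uncertain.

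NRF2 partners and controllers gave 1 lower and 2 higher calls among 22 measured genes in the authors' deposited table, with a median of -0.0026. Their shares, 4.55% lower and 9.09% higher, were under the 11.2% and 10.4% of all genes. PGAM5, a mitochondrial phosphatase that binds KEAP1, was lower at -0.62 ± 0.15 (adjusted p = 0.000463). BTRC, the substrate receptor of the other ubiquitin ligase that degrades NRF2, was higher at 0.47 ± 0.14 (adjusted p = 0.00619), and GSK3B, the kinase that marks NRF2 for it, was higher at 0.34 ± 0.13 (adjusted p = 0.0473). CUL3, the ligase scaffold that KEAP1 binds, had 0.15 ± 0.14, and BACH1, a repressor at the same elements, -0.39 ± 0.19, both with no call. The small MAF genes MAFG, MAFF and MAFK had no call either, at 0.22 ± 0.11, 0.025 ± 0.13 and -0.34 ± 0.20. These genes with no call were named for their roles after their values were seen.

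Among 28 other glutathione enzymes measured, 2 were lower and 5 higher in the authors' deposited table, with a median of -0.047. Of the 24 with an adjusted p below 1, 8.33% were lower and 20.8% higher, against 11.2% and 10.4% of all genes. GSTM1 at -1.36 ± 0.16 and GPX4, which reduces lipid peroxides, at -0.57 ± 0.12 were lower. The 3 highest called genes were GSTT2 at 2.85 ± 0.98, CHAC1, which breaks down glutathione, at 2.07 ± 0.42, and GGT7 at 0.67 ± 0.22. GSTT2 has a near-identical copy, GSTT2B, which makes its value uncertain. For other NADPH enzymes, 2 were lower and 0 higher among 18, with a median of -0.014: the mitochondrial malic enzyme ME3 at -0.78 ± 0.14 and MTHFD1 at -0.49 ± 0.14. The 2 lower genes were 11.8% of the 17 with an adjusted p below 1, near the 11.2% of all genes, and 4 of the 18 had an unadjusted p under 0.05.

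For other thioredoxin, glutaredoxin and repair enzymes, 2 were lower and 0 higher among 23 in the authors' deposited table, with a median of -0.039, and 7 had an unadjusted p under 0.05. The lower share was 9.09% of the 22 with an adjusted p below 1, under the 11.2% of all genes. MSRA, a methionine sulfoxide reductase, had -0.66 ± 0.22 (adjusted p = 0.0168), and TXNRD2, the mitochondrial thioredoxin reductase, -0.48 ± 0.16 (adjusted p = 0.0198). Enzymes that produce superoxide or hydrogen peroxide gave 1 lower and 1 higher call among 19, with a median of -0.019, which is 7.14% each way of the 14 with an adjusted p below 1, under the 11.2% and 10.4% of all genes. ACOX2, a peroxisomal oxidase of branched lipids, was lower at -1.70 ± 0.28, and AOX1, aldehyde oxidase, was higher at 0.91 ± 0.23.

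**Figure D4:**
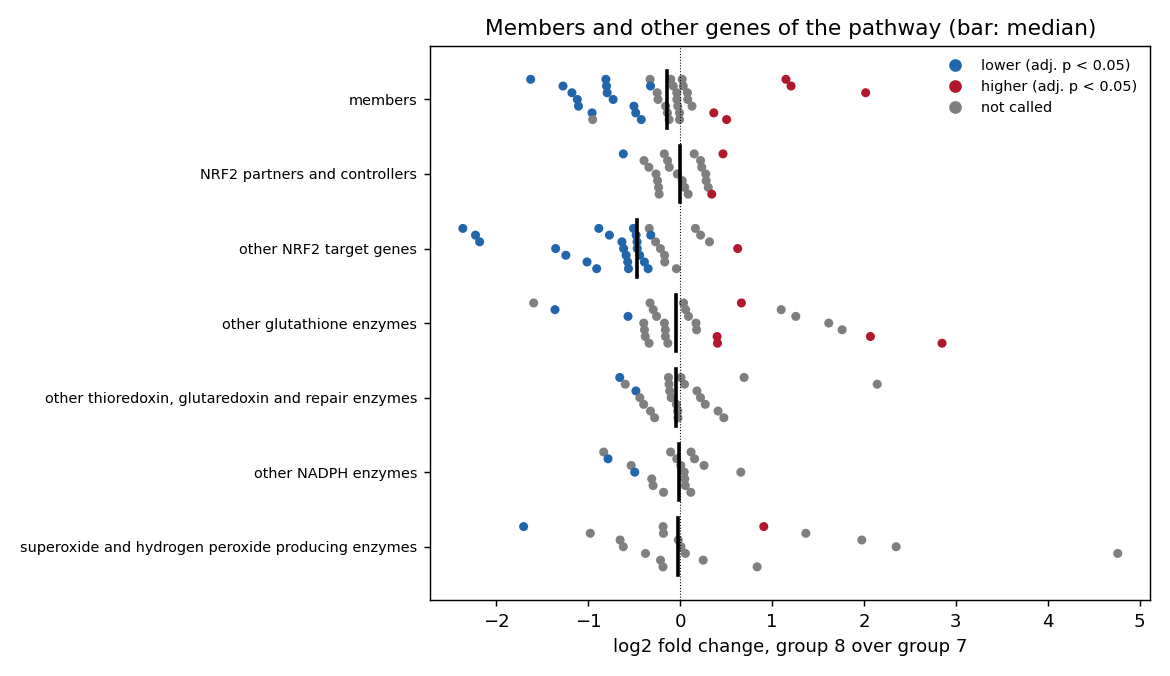
Log2 fold change of each measured gene for the members and the 6 other lists of the pathway, with a black bar at each list's median; the vertical spread within a list only separates points. Other NRF2 target genes have their median at -0.47, with 22 of 32 genes called lower, while the medians of the remaining 5 other lists lie between -0.047 and -0.0026. Members and lists were chosen with earlier results of these data known.

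Reads from exons shared with another gene cannot be assigned to one of the genes. For genes on opposite strands this is because the strand was not marked. Genes that share exons on the same strand would not be told apart by strand in any case. In GENCODE release 29, which matches all 38 genes in start, end and exon length, 23 members share no exon base with another gene and 9 share more than 10%. For SRXN1 the shared part is 85.0%, with the gene AL121758.1 on the same strand, which had -1.40 ± 0.70 with no call in the authors' deposited table. CBR3 shares 42.2% with its antisense gene CBR3-AS1, at -0.32 ± 0.54. PRDX1 shares 24.9% with MMACHC, at -0.35 ± 0.23, and NQO1 shares 17.7% with AC092115.2. Of the 14 genes called lower, 9 share at most 10% of their exon bases, among them UGDH, EPHX1, GPX2, TKT, GSR, GCLC and PGD, as do 3 of the 5 called higher, SOD2, GPX8 and GPX3. The part of these overlaps in the fold changes was not tested.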

How the data were processed

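The one deposited table was used. Its log2 fold change per gene was made by the authors, per the file headers, as was its p-value and adjusted p-value. The submitters' processing notes name DESeq2 1.20.0, featureCounts 1.5.0-p3 and HISAT2 2.0.5, without saying what each did; the genome build is not given in the sources used here. Other deposited columns used, gene start, end and length in bases, are annotation. The table also has 20 columns of levels for coded libraries and groups, which were left aside because their codes match no label; no count model was fitted, and depth is unknown here. The alternative of a count test foreseen for matched columns was therefore not run.

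Calls are the authors' adjusted p under 0.05. Their adjustment covered fewer genes than the table holds: Benjamini-Hochberg adjustment over every p-value gives KEAP1 0.00019, against 0.000124 as deposited. Adjusted p is listed at 1 for 9653 genes, which were left out of the background shares. The members were chosen by gene name. Members and lists were chosen with earlier results of these data known. Roles were assigned from general knowledge. The standard error is the absolute log2 fold change over the normal quantile of the two-sided p, and 95% intervals follow from it. Exon overlap was counted on GENCODE 29, and promoter words on RefSeq windows (GRCh38.p14). Named genes are all members, PCDH1, genes sharing exons with members, and up to 3 called genes at either end of each list; 1 gene of these lists is not reported here, and others are said to be named after their values were seen. The computations used Python 3.11.15, pandas 2.3.3 and SciPy 1.17.1, and were tested on simulated data.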

Additional observations from a re-analysis of the deposited data

How the results depend on the processing

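The counts of 14 lower and 5 higher genes moved most with a large minimum fold change and with the choice of members kept. With a minimum absolute log2 fold change of 1, 5 genes were lower and 3 higher. Without the members that share over 10% of their exon bases with another gene, an alternative chosen after seeing the data, 9 were lower and 3 higher, fewer because 9 genes were left out. Adjusted p thresholds of 0.01 and 0.10, a minimum of 0.5, and Benjamini-Hochberg adjustment over all p-values or over those of protein-coding genes gave 11 to 15 lower and 4 or 5 higher. The median of -0.15 stayed between -0.24 and -0.15 as a mean, centred on protein-coding genes or without GPX1. No member changed sign on centring or changed its call with every p-value adjusted. The share of genes with the response element core, 34.4%, was 31.2% in the bases before the start alone, and 6.25% for the longer word, which has fewer possible letters. No paired analysis was possible because no label ties the library columns to a group; for the same reason no library was left out in turn. The authors' processing, read depth and knockdown assignment of the codes limit every value.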
